A study of Homo sapiens with 4 samples.

Results

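The polyamine genes ODC1, AMD1, SRM, SMS, SAT1, AZIN1, OAZ1, OAZ2, MAT2A and MTAP were read by gene symbol on 4 arrays of 22Rv1 prostate cancer cells. The list of 10 was chosen for the known polyamine output of prostate epithelium and spans acetylation, inhibition and salvage as well as synthesis. Of these, 9 were found among the 17687 genes named on the array, each with 1 probe set, and ODC1 was not analysed here. All 9 counted as measured, meaning a highest value above 6.51 on the log2 scale, the median of that value over all named genes. The rule itself thus sets the count of 8843 measured genes. The cut lies below the background of every array (6.62 to 7.39, defined below), so measured does not mean detected. Above background on all 4 arrays were 6458 genes, among them 8 of the 9 members.

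22Rv1 is a human castration-resistant prostate cancer line that grows as a culture of tumour cells. The 4 groups were siOCT1 with dihydrotestosterone (DHT), siOCT1 with vehicle, siControl with DHT, and siControl with vehicle, with 1 array each. siOCT1 is an siRNA against the octamer-binding transcription factor OCT1, siControl is the control siRNA, DHT was given at 10 nM and the vehicle was ethanol. All cells were transfected 48 h before hormone, spent 3 days in medium with 2.5% charcoal-treated serum, and were exposed to hormone or vehicle for 24 h. The level of POU2F1, which encodes OCT1, was not analysed here, so the siRNA effect on its target was not checked. With a single culture per group, none of the differences can be set against the spread of repeats, and 4 arrays give limited precision.

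Polyamines are small positively charged molecules that bind nucleic acids and are needed for growth, and the prostate gland makes and secretes them in large amounts. Ornithine decarboxylase makes putrescine, and spermidine synthase (SRM) and spermine synthase (SMS) extend it with aminopropyl groups. These groups come from S-adenosylmethionine after its decarboxylation by AMD1. SAT1 acetylates spermidine and spermine for oxidation or export. The antizymes OAZ1 and OAZ2 inactivate ornithine decarboxylase and direct it to the proteasome, and the antizyme inhibitor AZIN1 binds the antizymes in its place. MAT2A makes S-adenosylmethionine from methionine, and MTAP recovers the methylthioadenosine that both synthases release.

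The promoters of SAT1 and AMD1, the members that passed the tests below, and of SRM, the synthase whose values crossed direction, are shown as the 250 bases upstream of each gene's start. They are from RefSeq, build GRCh38.p14, at chrX:23782923-23783172 on the plus strand, chr6:110874535-110874784 on the plus strand and chr1:11060019-11060268 on the minus strand. Capitals mark matches to any of 3 motifs searched on both strands.
SAT1: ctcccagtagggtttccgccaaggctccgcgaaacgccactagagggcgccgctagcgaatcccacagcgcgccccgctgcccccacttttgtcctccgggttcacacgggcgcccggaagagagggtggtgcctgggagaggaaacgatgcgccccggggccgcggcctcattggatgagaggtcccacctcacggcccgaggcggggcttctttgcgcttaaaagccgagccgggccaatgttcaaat
AMD1: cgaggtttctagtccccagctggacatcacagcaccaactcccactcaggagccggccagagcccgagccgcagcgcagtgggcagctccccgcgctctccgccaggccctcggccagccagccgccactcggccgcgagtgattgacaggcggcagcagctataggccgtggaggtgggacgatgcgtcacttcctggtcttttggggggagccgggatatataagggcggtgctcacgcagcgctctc
SRM: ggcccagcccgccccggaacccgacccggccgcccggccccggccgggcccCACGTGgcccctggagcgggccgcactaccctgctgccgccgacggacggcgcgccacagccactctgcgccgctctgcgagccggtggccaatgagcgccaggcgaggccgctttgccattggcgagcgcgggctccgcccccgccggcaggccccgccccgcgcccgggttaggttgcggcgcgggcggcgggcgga
The motifs were the octamer ATGCAAAT bound by OCT factors, the E-box CACGTG bound by MYC and MAX, and the TATA box TATAAA, none of which contains another. The E-box in SRM, starting 199 bases before the gene's start, was the only match in these 3 windows, and 6.49% of 27305 promoter windows hold an E-box. The octamer occurs in 1.66% and the TATA box in 11.1% of all windows. The windows are rich in G and C, at 66.4% in SAT1, 67.2% in AMD1 and 82% in SRM, against a median of 58% over all windows. A missing match says only that these letters are not in this window.

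The cells carried the luminal epithelial signal of their label. All 6 luminal markers found on the array, among them keratin 8 (KRT8) and EPCAM, lay above background on every array, where background is the 95th percentile of an array's 612 negative control probe sets (6.62 to 7.39). Of 12 basal, stromal, immune and endothelial markers found, none did, and their summed linear signal was 349 in siOCT1 with DHT, 272 in siOCT1 with vehicle, 312 in siControl with DHT and 293 in siControl with vehicle. All 8 proliferation genes chosen as a check, among them RRM1 and CCNA2, fell in siOCT1 cells, where 15.3% of measured genes were called lower. Their median difference was -2.29 (limma adjusted p below the threshold of 0.05 for each). The part of this fall in the results below was not tested. As a check of the hormone, 4 of 6 measured androgen targets rose with DHT, where 0.679% of measured genes were called higher. KLK2 and KLK3 did not pass (limma adjusted p = 0.101 and 0.398). KLK2 lay below background on both siOCT1 arrays and KLK3 on both vehicle arrays, and KLK3 was at least 1.87-fold higher with DHT under siControl. Of the 4 that passed, SLC45A3 was higher with DHT by at least 28.2-fold under siOCT1 and 32.1-fold under siControl. Both check lists were chosen with earlier results of these data known, so their counts are a description only.

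SAT1, the spermidine and spermine acetyltransferase, spanned the widest range of the 9 genes, and a bulk array cannot tell fewer cells with a transcript from less of it per cell. Its signal was 12.65 in siOCT1 with DHT and 10.72 in siOCT1 with vehicle, against 12.14 in siControl with DHT and 8.77 in siControl with vehicle (log2 levels). Both DHT arrays lay above both vehicle arrays, and siControl with vehicle was the lowest of all. The difference between DHT and vehicle was 1.93 in siOCT1 cells (3.80-fold) and 3.37 in siControl cells (10.3-fold). Of the 8843 measured genes, 1.12% had a larger difference in siOCT1 cells and 0.362% in siControl cells.

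SAT1 rose with DHT over both siRNAs by 2.65 ± 0.36 (log2, SE, 4 arrays; limma adjusted p = 0.0286). This limma test assumes that siRNA and hormone effects add. Its error draws the mismatch between the 2 pairs, on 1 residual degree of freedom, toward a value shared by genes of like intensity. That shared value has 5.85 prior degrees of freedom and so outweighs the gene's own mismatch. Neither part is the spread of repeat cultures. SAT1 was the 1 of 9 members called for DHT, where the fit called 0.984% of measured genes, 0.679% as higher. With values lifted to the highest background the adjusted p of SAT1 was 0.12, and without an intensity trend it was 0.0754, neither past the threshold.

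SAT1 also rose in siOCT1 cells, by 1.23 ± 0.36 over both ligands (log2, SE; limma adjusted p = 0.0493). The siOCT1 minus siControl difference was 0.51 in DHT and 1.95 in vehicle. This call sat at the threshold and was lost in 4 of 8 alternative fits, with adjusted p between 0.0502 and 0.0815. The larger difference in each contrast rests on the siControl vehicle array. Without that array the values left are 0.51 for siOCT1 in DHT and 1.93 for DHT in siOCT1 cells, with no residual for a test.

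AMD1, the decarboxylase that commits S-adenosylmethionine to polyamine synthesis, was brighter in siOCT1 cells. Its signal was 16.12 in siOCT1 with DHT and 15.97 in siOCT1 with vehicle, against 15.47 in siControl with DHT and 14.25 in siControl with vehicle. Both siOCT1 arrays lay above both siControl arrays. AMD1 rose by 1.18 ± 0.26 (log2, SE; limma adjusted p = 0.0199), a mean of 2.27-fold, made of 0.65 in DHT and 1.72 in vehicle. Without the siControl vehicle array the value left is the 0.65 in DHT, with no residual for a test, and without an intensity trend the adjusted p was 0.0607.

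With DHT, AMD1 was higher by 0.15 in siOCT1 cells and by 1.22 in siControl cells, a mean of 0.69 (limma adjusted p = 0.319), which did not pass. The siOCT1 DHT value exceeded 16, the log2 range of a 16-bit scanner, as did 327 to 379 probe sets on each array, so folds are read on the deposited scale, which may be wider than true log2. RefSeq names 4 AMD1 pseudogenes, 3 of SRM, 2 of MTAP and 1 each of SMS, OAZ1 and MAT2A, whose transcripts the probe sets may not separate.

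**Figure D1:**
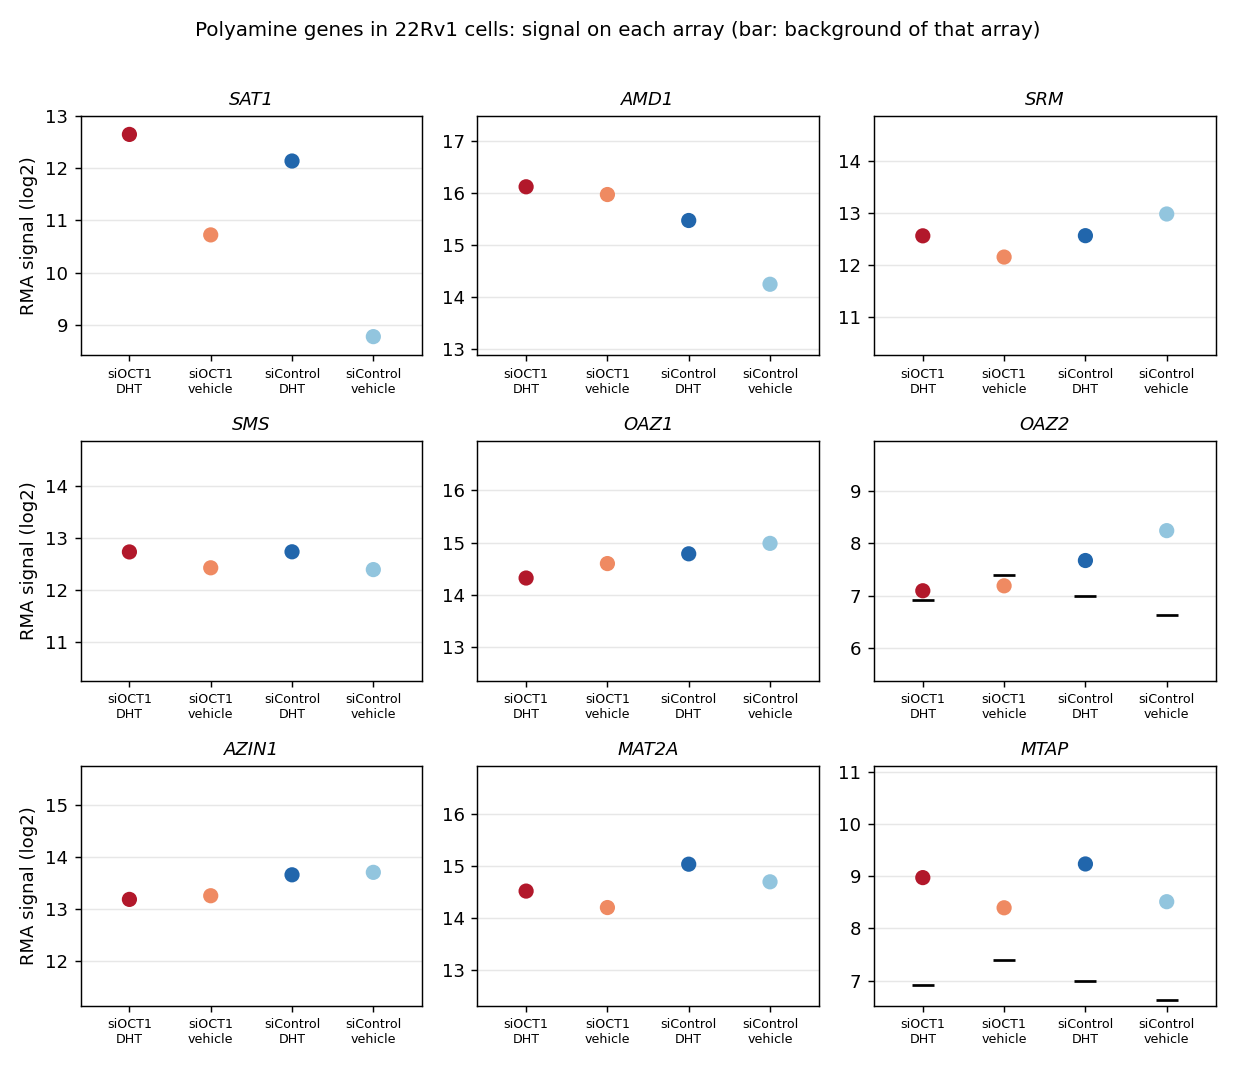
Signal of each gene on each of the 4 arrays (log2), with 1 point per array; every panel spans the same number of log2 units and short black bars mark the array's background where it falls inside the panel. SAT1 lies at 12.65 in siOCT1 with DHT and at 8.77 in siControl with vehicle, while SMS stays between 12.39 and 12.73.

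Neither synthase was called for siOCT1 or DHT. SRM, which makes spermidine, had signals of 12.57 in siOCT1 with DHT and 12.16 in siOCT1 with vehicle, against 12.57 in siControl with DHT and 12.98 in siControl with vehicle. The siOCT1 minus siControl difference was -0.83 in vehicle, while the DHT arrays had the same value to 2 decimals, and the mean of -0.41 did not pass (limma adjusted p = 0.286; 95% interval -1.04 to 0.21). With DHT the SRM signal was higher by 0.41 in siOCT1 cells and lower in siControl cells, at -0.42, a crossing that was not tested.

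SMS, which makes spermine, had 12.73 in siOCT1 with DHT and 12.42 in siOCT1 with vehicle, against 12.73 in siControl with DHT and 12.39 in siControl with vehicle. It was the steadiest member, and 93.5% of measured genes spanned a wider range over the 4 arrays. Its mean siOCT1 difference was 0.02 with a 95% interval of -0.49 to 0.52, and its mean DHT difference was 0.32 with an interval of -0.18 to 0.83. Both DHT arrays lay above both vehicle arrays by a small margin.

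None of the 3 genes that govern ornithine decarboxylase protein passed the limma test for siOCT1 or DHT. OAZ1, the main antizyme, had 14.32 in siOCT1 with DHT and 14.60 in siOCT1 with vehicle, against 14.78 in siControl with DHT and 14.98 in siControl with vehicle. Its differences of -0.46 in DHT and -0.39 in vehicle were alike, with a mean of -0.43 (limma adjusted p = 0.115). AZIN1, the antizyme inhibitor, had 13.18 in siOCT1 with DHT and 13.25 in siOCT1 with vehicle, against 13.65 in siControl with DHT and 13.70 in siControl with vehicle. Its mean difference was -0.46 (limma adjusted p = 0.13; 95% interval -0.92 to 0.0047). With loess centring the means were -0.25 for OAZ1 and -0.28 for AZIN1.

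OAZ2, a second antizyme, was dim, at 7.09 in siOCT1 with DHT and 7.19 in siOCT1 with vehicle, against 7.67 in siControl with DHT and 8.25 in siControl with vehicle. The siOCT1 vehicle value lay below that array's background of 7.39, so OAZ2 was at least 1.8-fold lower there, and the difference in DHT was -0.58. OAZ2 did not pass either (mean -0.82, limma adjusted p = 0.092). That mean includes the value below background, and with values lifted to the highest background it was -0.57. With DHT, OAZ1 differed by -0.28 in siOCT1 cells and -0.20 in siControl cells, and AZIN1 by -0.07 and -0.05 in the same order, and neither passed for DHT.

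MAT2A, the S-adenosylmethionine synthetase of most tissues outside liver, had 14.52 in siOCT1 with DHT and 14.20 in siOCT1 with vehicle, against 15.03 in siControl with DHT and 14.70 in siControl with vehicle. The siOCT1 difference was -0.52 in DHT and -0.49 in vehicle, with a mean of -0.50 (limma adjusted p = 0.0742). The DHT difference was 0.32 in siOCT1 cells and 0.34 in siControl cells (mean 0.33, limma adjusted p = 0.457), and the responses differed by -0.02 between the siRNAs. The mean siOCT1 difference had the opposite sign to that of AMD1, the enzyme that uses its product.

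MTAP, the methylthioadenosine phosphorylase, had 8.98 in siOCT1 with DHT and 8.40 in siOCT1 with vehicle, against 9.24 in siControl with DHT and 8.51 in siControl with vehicle. Both DHT arrays lay above both vehicle arrays, by 0.58 in siOCT1 cells and 0.72 in siControl cells, and the mean of 0.65 did not pass (limma adjusted p = 0.349). The signal lay above background on every array for this gene, which many tumours delete, though the probe set may also read its 2 pseudogenes.

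**Figure D2:**
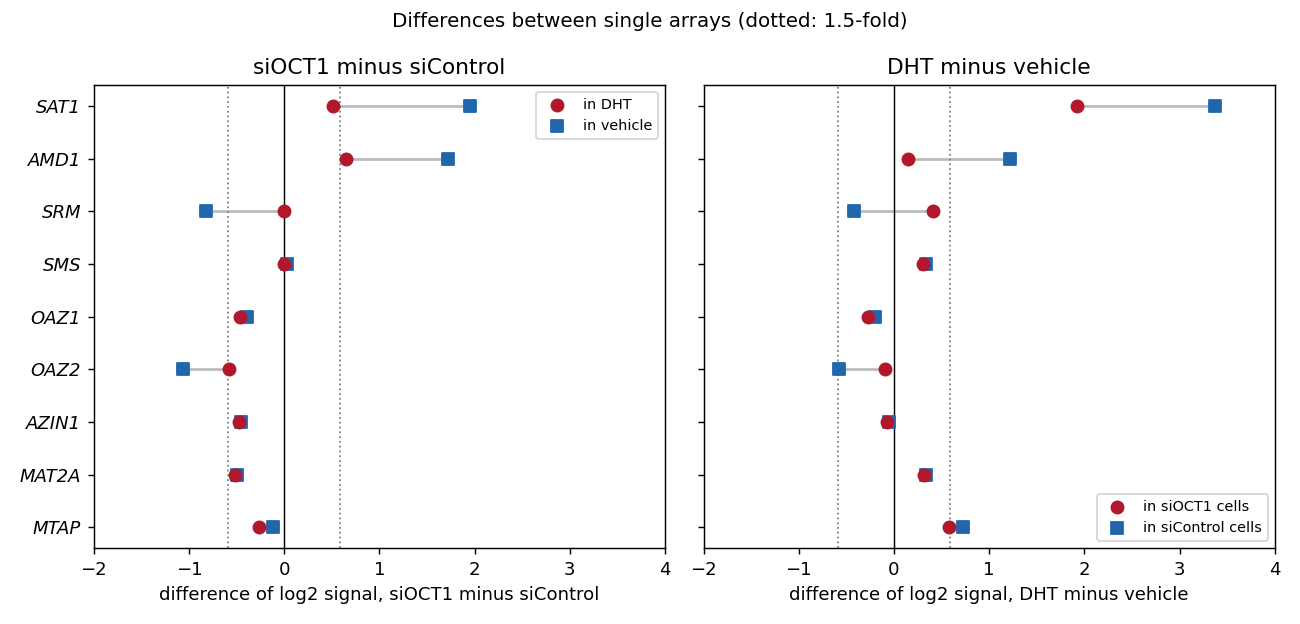
Differences of log2 signal between single arrays for each gene: on the left siOCT1 minus siControl in DHT (circles) and vehicle (squares), on the right DHT minus vehicle in siOCT1 cells (circles) and siControl cells (squares), with dotted lines at 1.5-fold. SAT1 and AMD1 lie right of 0 in all 4 pairs, and the circle and square nearly coincide for OAZ1, AZIN1, MAT2A and SMS.

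Over the 9 genes, 2 rose and none fell in siOCT1 cells in the limma fit, where 24.4% of measured genes were called, 9.1% higher and 15.3% lower. The member median was -0.41, against -0.06 over all measured genes, so most members lay on the lower side although those called lay on the higher. Both siOCT1 arrays lay below both siControl arrays for 5 members and above for AMD1, against 34.5% and 27% of measured genes. With loess centring the 5 became 3 and the member median -0.25. For SRM that order rests on 2 values that are equal to 2 decimals.

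A size rule of 1.5-fold in both pairs took 1 member for siOCT1, AMD1, against 30.9% of measured genes, and 1 for DHT, SAT1, against 9.23%. SAT1 missed the rule for siOCT1 because of its 0.51 in DHT. The member median for DHT was 0.32, against 0.01 over all measured genes, and no member was called lower. Both DHT arrays lay above both vehicle arrays for 3 members, SAT1, SMS and MTAP, against 13.1% of measured genes.

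The change of the DHT response, siOCT1 minus siControl, is 1 value per gene and has no test. It was -1.44 for SAT1, -1.07 for AMD1 and 0.82 for SRM, the 3 members past 1.5-fold, while 35.5% of measured genes passed. MTAP stood at -0.15, OAZ1 at -0.08, SMS at -0.04, and AZIN1 and MAT2A at -0.02 each. No value is given for OAZ2, whose siOCT1 vehicle signal lay below background. SAT1 and AMD1 had the larger DHT difference in siControl cells, and for both the siControl vehicle array was the lowest of the 4.

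The 5 genes nearest to SAT1 in their 4 centred values, among 6457 other genes above background on every array, were CROT, LPAR3, MAP1B, SMARCA1 and SLITRK6. Their Euclidean distances were 0.244, 0.326, 0.375, 0.52 and 0.576 log2 units. CROT, a peroxisomal carnitine acyltransferase, was higher with DHT by 2.10 in siOCT1 cells and 3.11 in siControl cells, and higher with siOCT1 by 0.83 in DHT and 1.84 in vehicle. LPAR3, a lysophosphatidic acid receptor, was higher with DHT by 1.84 in siOCT1 cells and 2.93 in siControl cells. Likeness over 4 arrays is a description only.

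**Figure D3:**
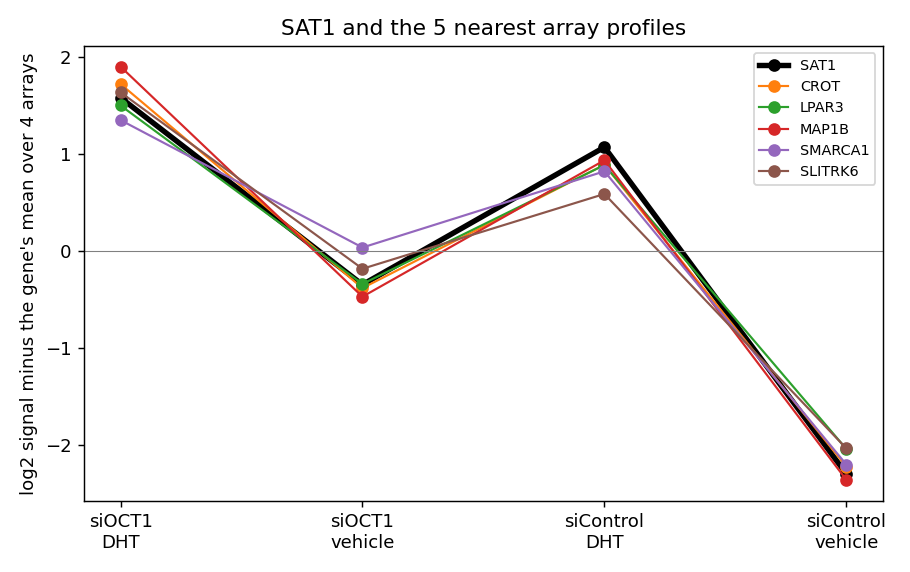
Log2 signal minus the gene's own mean for SAT1 (thick line) and the 5 genes with the nearest profiles, by array; lines join the 4 arrays of 1 gene. All 6 genes are highest in siOCT1 with DHT and lowest in siControl with vehicle.

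The genes that feed and use the pathway were then read from lists chosen with earlier results known. Of 36 genes, 35 were found and 20 measured. In siOCT1 cells 7 of the 20 fell and none rose, where 15.3% and 9.1% of measured genes did, with a median of -0.56 against -0.06 over all measured genes. The 7 became 3 with values lifted to the highest background, and 4 without a filter on dim genes or without an intensity trend. No gene of these lists was called for DHT, where 0.984% of measured genes were, and centring on positive controls called 1, APIP.

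The largest mean fall of the 20 was in ornithine and arginine supply. OAT, the mitochondrial aminotransferase that interconverts ornithine and glutamate semialdehyde, had 9.35 in siOCT1 with DHT and 9.09 in siOCT1 with vehicle, against 11.15 in siControl with DHT and 12.07 in siControl with vehicle. OAT fell by 2.39 ± 0.33 (log2, SE; limma adjusted p = 0.00517), with differences of -1.80 in DHT and -2.98 in vehicle. The larger difference sets the highest array for OAT, siControl with vehicle, against the lowest, siOCT1 with vehicle. ALDH18A1, which makes the semialdehyde from glutamate, had differences of -0.46 in DHT and -1.21 in vehicle and did not pass (limma adjusted p = 0.0612). The arginase ARG2 was at least 1.15-fold higher in DHT, its siOCT1 vehicle value lay below background, and it did not pass (limma adjusted p = 0.126).

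Of 5 measured transport genes 2 fell. SLC7A1, a carrier of arginine and ornithine, had 10.52 in siOCT1 with DHT and 9.92 in siOCT1 with vehicle, against 11.37 in siControl with DHT and 12.52 in siControl with vehicle. It fell by 1.73 ± 0.41 (limma adjusted p = 0.0261), with differences of -0.85 in DHT and -2.60 in vehicle. The larger difference sets the highest array for SLC7A1, siControl with vehicle, against the lowest, siOCT1 with vehicle. The calls of SLC7A1 and SLC3A2 were each lost in 1 of 8 alternative fits. SLC3A2, the heavy chain of several amino acid carriers, fell by 0.84 ± 0.17 (limma adjusted p = 0.0174), with differences of -0.65 in DHT and -1.04 in vehicle. ATP13A2, the lysosomal polyamine exporter, differed by -0.62 in DHT and -0.97 in vehicle and did not pass (limma adjusted p = 0.0705). The transport genes ATP13A3 and SLC18B1 did not pass either (limma adjusted p = 0.189 and 0.653). ATP13A3 was higher in siOCT1 cells, by 0.29 in DHT and 0.59 in vehicle. SLC18B1 was higher by 1.17 in DHT and lower in vehicle, at -0.60.

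On the methionine side, MAT2B, the regulatory partner of MAT2A, had 9.10 in siOCT1 with DHT and 9.36 in siOCT1 with vehicle, against 10.82 in siControl with DHT and 10.99 in siControl with vehicle. It fell by 1.68 ± 0.25 (limma adjusted p = 0.00623), and 1 of the 5 measured methionine cycle genes was called. Of 3 measured salvage genes downstream of MTAP, 2 fell, APIP by 1.11 ± 0.28 (limma adjusted p = 0.0306) and ADI1 by 0.90 ± 0.25 (limma adjusted p = 0.0421). APIP lost the call in 2 and ADI1 in 4 of 8 alternative fits. With DHT, APIP was higher by 1.81 in siOCT1 cells and 1.22 in siControl cells and was not called (limma adjusted p = 0.0663), except with arrays centred on positive controls (limma adjusted p = 0.00736).

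EIF5A, the translation factor that carries the spermidine-derived residue hypusine, had 16.09 in siOCT1 with DHT and 16.22 in siOCT1 with vehicle, against 16.66 in siControl with DHT and 16.84 in siControl with vehicle. It fell by 0.59 ± 0.14 (limma adjusted p = 0.0241), with all 4 values above 16, and lost the call in 4 of 8 alternative fits. DHPS, which starts the hypusine modification, differed by 0.29 in DHT and 0.31 in vehicle and did not pass (limma adjusted p = 0.397). SAT2, the paralog of SAT1, differed by 0.41 in DHT and 0.42 in vehicle (limma adjusted p = 0.292), and the oxidases PAOX and SMOX were below background on every array.

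**Figure D4:**
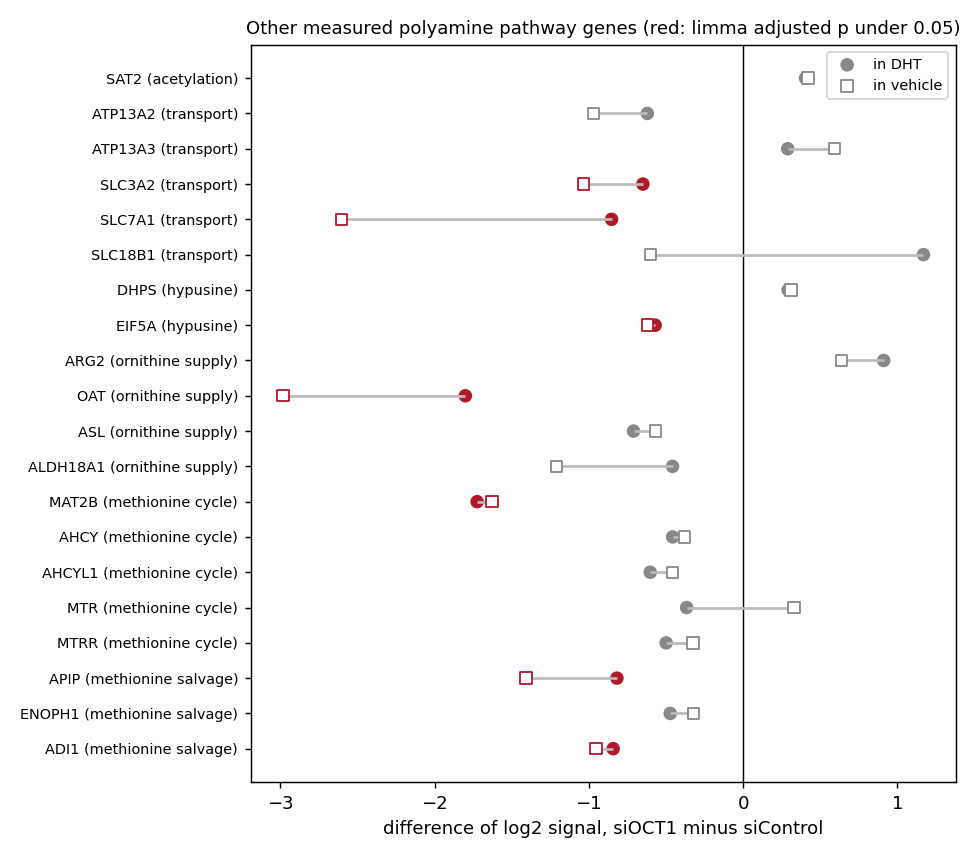
Difference of log2 signal, siOCT1 minus siControl, for the 20 other measured pathway genes, with circles for the pair in DHT and squares for the pair in vehicle; red marks the 7 genes called by limma. OAT and SLC7A1 reach -2.98 and -2.60 in vehicle, and -1.80 and -0.85 in DHT.

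MYC, a known activator of polyamine genes, had 11.18 in siOCT1 with DHT and 10.27 in siOCT1 with vehicle, against 10.98 in siControl with DHT and 11.87 in siControl with vehicle. It was higher with DHT in siOCT1 cells, by 0.91, and lower in siControl cells, at -0.89. Opposite signs for DHT were seen in 39.5% of measured genes, and a link of MYC to any member was not tested. Neither the mean siOCT1 difference of MYC, -0.70, nor that of DHT passed (limma adjusted p = 0.259 and 0.994). MAX, the partner of MYC, rose with siOCT1 by 0.88 ± 0.25 (limma adjusted p = 0.0433), a call lost in 3 of 8 alternative fits. MNT, a repressive partner of MAX, differed by 0.65 (limma adjusted p = 0.151).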

How the data were processed

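RNA of 4 cultures was hybridised to 1 whole-transcript array each. The deposited log2 signals came from the authors' run of RMA and Affymetrix Expression Console, as the submitters' processing notes name them (no version is given in the sources used here). Because RMA gives all arrays 1 common distribution, an overall shift in RNA is invisible. Base 2 was inferred from the values' range. Groups came from the labels.

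The platform table gives a single symbol for 17709 of the 24351 probe sets. For the 20 genes with several, the probe set with the highest mean was used. A model with additive siRNA and ligand terms was fitted over the 8843 measured genes with limma 3.58.1 (intensity trend; prior degrees of freedom 5.85) in R 4.3.3, with Benjamini-Hochberg adjustment. Folds against a value below background use that background. The size rule was 1.5-fold, with 2-fold as an alternative. Pandas 2.3.3 and matplotlib 3.10.9 did the rest.

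The members and all lists were chosen with earlier results of these data known. Named were all members, list genes called by the fit or otherwise up to 3 per list by mean difference, and the 5 profiles nearest to SAT1. ATP13A3, SLC18B1 and MXI1 were added because their values ran otherwise than those of the genes named. Alternatives were centring on 2197 positive control probe sets, loess centring, values lifted to the highest background (genes at that floor on all arrays left out, a step added after seeing the data), a looser or stricter dimness filter, averaged probe sets, and limma without trend or with robust moderation.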

Additional observations from a re-analysis of the deposited data

Results flagged for a closer look

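Some genes differed in opposite directions in the 2 pairs of arrays of the same contrast, and none of these differences was tested. With DHT, SRM stood at 0.41 in siOCT1 cells and -0.42 in siControl cells. The same crossing was seen for SLC7A1, at 0.60 in siOCT1 cells and -1.15 in siControl cells, and for MYC, at 0.91 in siOCT1 cells and -0.89 in siControl cells. OAT stood at 0.26 in siOCT1 cells and -0.92 in siControl cells, and ALDH18A1 at 0.36 in siOCT1 cells and -0.39 in siControl cells. For SRM, SLC7A1, MYC, OAT and ALDH18A1 alike, siControl with vehicle was the highest array and siOCT1 with vehicle the lowest. SLC18B1, at 0.79 in siOCT1 cells and -0.98 in siControl cells, crossed the same way. So did MXI1, of the list of MYC and partners, at 0.62 in siOCT1 cells and -0.76 in siControl cells. For SLC18B1 and MXI1 siOCT1 with DHT was the highest array. ATP13A3 stood at -0.07 in siOCT1 cells and 0.23 in siControl cells. AHCY, at -0.0033 in siOCT1 cells and 0.074 in siControl cells, and AHCYL1, at -0.098 in siOCT1 cells and 0.048 in siControl cells, were close to 0 in both. Of measured genes, 39.5% had opposite signs for DHT in the 2 siRNA states, and 1 of the 9 members did.

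For siOCT1 against siControl, SMS stood at -0.0027 in DHT and 0.034 in vehicle, and MYC at 0.20 in DHT and -1.60 in vehicle. SLC18B1 stood at 1.17 in DHT and -0.60 in vehicle, and MXI1 at 0.93 in DHT and -0.45 in vehicle. Opposite signs in this contrast were seen for 23% of measured genes.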

How the results depend on the processing

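No fit with a replicate block was possible, because each group had 1 array. The 2 members called for siOCT1 became 1 (AMD1) with values lifted to the highest background, without a filter on dim genes and with robust moderation, and 0 without an intensity trend. The 1 member called for DHT became 0 with values lifted to the highest background and without an intensity trend. Over all measured genes, 2158 were called for siOCT1 and 1404 with values lifted to the highest background. The 87 called for DHT became 293 with positive controls centred, 9 with values lifted to the highest background, 57 without a filter, 45 with the stricter filter and 30 without an intensity trend. The 1 member past the size rule for siOCT1 became 2 with loess centring and 0 at 2-fold. These causes were not tested. Centring on positive controls moved the median siOCT1 difference by 0.108 and the share of siOCT1 calls that were higher from 37.3% to 47.5%. The wider pathway's 7 falls for siOCT1 were 3 to 7 over the alternatives, with 0 rises in each. Over 8 alternatives, AMD1 kept its siOCT1 call in 7, SAT1 its siOCT1 call in 4 and SAT1 its DHT call in 6, and none reversed. Of 142 values of single members under an alternative, 7 lost the call. Most of the 142 belong to results not called in the main fit, which had no call to lose and stayed uncalled.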
